A study of Mus musculus with 6 samples.

Results

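Fatty acid binding proteins were followed in aorta RNA from mice given either a high fat diet or chow. The family was represented by 5 genes of the 12393 that had a probe set with 1 gene symbol in the platform annotation, namely Fabp1, Fabp3, Fabp4, Fabp5 and Fabp7. All their probe sets were taken, 10 in all, of which 4 belonged to Fabp4, 2 each to Fabp1 and Fabp5, and 1 each to Fabp3 and Fabp7. Fabp3 was picked from its rise between the diets on these same arrays, so its difference is given as a description with no test, while the other genes were chosen by their family.

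Each of the 6 Affymetrix mouse arrays carried RNA pooled from 3 aortas, and the 3 pools of each diet were described as independent. All animals were C57BL/6J, an inbred strain, and male wherever the label gave the sex, which was missing for high fat replicate 1. The high fat diet was given for 16 to 18 weeks, and for high fat replicates 2 and 3 it began when the animals were 10 weeks old. High fat replicate 1 was labelled with mice 16 to 20 weeks old, chow replicates 2 and 3 with mice 26 to 28 weeks old, and chow replicate 1 with no age, so that for the arrays numbered 1 a difference of age and one of diet cannot be told apart. Adventitia and the fat around the vessel had been stripped from the aortas of both groups, and the composition of the high fat diet was not given in the sources used here.

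Fatty acid binding proteins are small soluble proteins that hold a long-chain fatty acid in a barrel-shaped pocket and carry it between membranes, lipid droplets, mitochondria and the nucleus. Each is typical of certain cells. Fabp3 is the form of heart, skeletal muscle and brown fat, Fabp4 that of adipocytes, macrophages and capillary endothelium, Fabp5 that of skin with wide expression elsewhere, Fabp1 that of liver and gut, and Fabp7 that of brain glia. Fatty acids delivered to the nucleus can activate the PPAR receptors, and several genes of the family are themselves known PPAR targets.

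The promoters of 3 of the 5 genes were held in the RefSeq table for build GRCm38.p6, and they are shown because they set the gene that was higher on high fat diet beside a pair with dim signals. Each line gives the 250 bases before the annotated start, 5′ to 3′ on the + strand. Capitals mark AGGTCA, the recognition letters shared by many nuclear receptors, the TATA box TATAAA, and TATTTA, an A and T rich element chosen after the sequences were seen. On the reverse strand AGGTCA reads as TGACCT and TATTTA as TAAATA in these lines.
Fabp3, chr4:130308488-130308737: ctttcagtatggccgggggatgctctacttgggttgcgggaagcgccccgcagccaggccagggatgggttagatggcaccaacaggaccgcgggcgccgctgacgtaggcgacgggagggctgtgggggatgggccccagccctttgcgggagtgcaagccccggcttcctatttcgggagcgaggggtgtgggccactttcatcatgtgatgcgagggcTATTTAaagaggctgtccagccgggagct
Fabp1, chr6:71199629-71199878: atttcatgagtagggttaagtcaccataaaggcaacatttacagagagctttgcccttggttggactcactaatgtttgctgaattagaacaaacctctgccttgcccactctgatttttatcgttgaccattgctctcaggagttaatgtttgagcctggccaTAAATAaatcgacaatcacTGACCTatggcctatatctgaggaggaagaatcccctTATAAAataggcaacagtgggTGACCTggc
Fabp7, chr10:57784673-57784922: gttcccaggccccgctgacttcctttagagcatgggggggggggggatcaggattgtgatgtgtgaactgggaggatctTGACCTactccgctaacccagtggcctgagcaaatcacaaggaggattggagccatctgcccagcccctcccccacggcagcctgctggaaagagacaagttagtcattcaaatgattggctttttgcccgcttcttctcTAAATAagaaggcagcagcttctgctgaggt

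The Fabp3 promoter held 1 TATTTA, with its first base 29 bases before the start, and no match to AGGTCA or TATAAA, which says only that these letters are not in this window. Its GC share of 64.8% was above that of 82.3% of the 32851 promoters in the table. The Fabp1 promoter held AGGTCA on the reverse strand at 2 places, beginning 67 and 9 bases before the start, as well as 1 TATAAA and 1 TATTTA. The Fabp7 promoter held AGGTCA 1 time on the reverse strand, 171 bases before the start, and TATTTA 1 time. AGGTCA was found in 14% of all promoter windows of this length, TATAAA in 12.4% and TATTTA in 12.7%. A direct repeat of AGGTCA with 1 base between the copies is the consensus to which PPAR and RXR bind together. Exact matches to it were found in 0.0335% of all windows and in none of these 3. Sites that differ from these letters were not searched for, so the absence of a PPAR site does not follow. No motif overlapped another in the printed windows.

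The values are MAS5 signals, a linear brightness computed per probe set and array, and as deposited they had the same trimmed mean on all 6 arrays. No detection calls were used here, and 42.0% to 46.3% of the signals on an array were under 50, so that signals in this range cannot be separated from background. Probe sets with a mean above a signal of 40.7 were tested, 13575 in all, and 8 of the 10 of this family were among them. Levels are compared between diets for each probe set and never between probe sets, since these differ in how brightly they bind. Smooth muscle markers were bright on every array, with Acta2, smooth muscle actin, at 7181 to 9545 and Myh11, smooth muscle myosin, at 3212 to 3920. Markers of adipocytes were also present on all 6 arrays although fat had been stripped: Adipoq, the hormone adiponectin, lay between 1559 and 2190, and Ucp1, the uncoupling protein of brown adipocytes, between 2122 and 3664.

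Fabp3, whose protein supplies fatty acids to mitochondria in muscle and brown fat, was measured by probe set 1416023_at. In the order of replicates 1, 2 and 3, high fat arrays read 1853, 2386 and 2179 and chow arrays read 631.9, 784.3 and 589.6. All arrays of the high fat diet lay above all arrays of chow, and replicate 2 was the highest array of both diets. The means were 2140 ± 269 and 668.6 ± 102.4 (SD, n = 3 pools each), a ratio of 3.20. On the scale of log2(signal + 6) used throughout, which understates the change of low signals, the difference was 1.67 ± 0.15 (SE). Between pools of one diet the log2 SD was 0.20. Of the 13575 probe sets tested, 3 had a larger positive difference. With both arrays numbered 1 left out, the difference of Fabp3 was 1.74. High fat replicate 1 was labelled with a younger age than chow replicates 2 and 3, and chow replicate 1 with none.

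**Figure D1:**
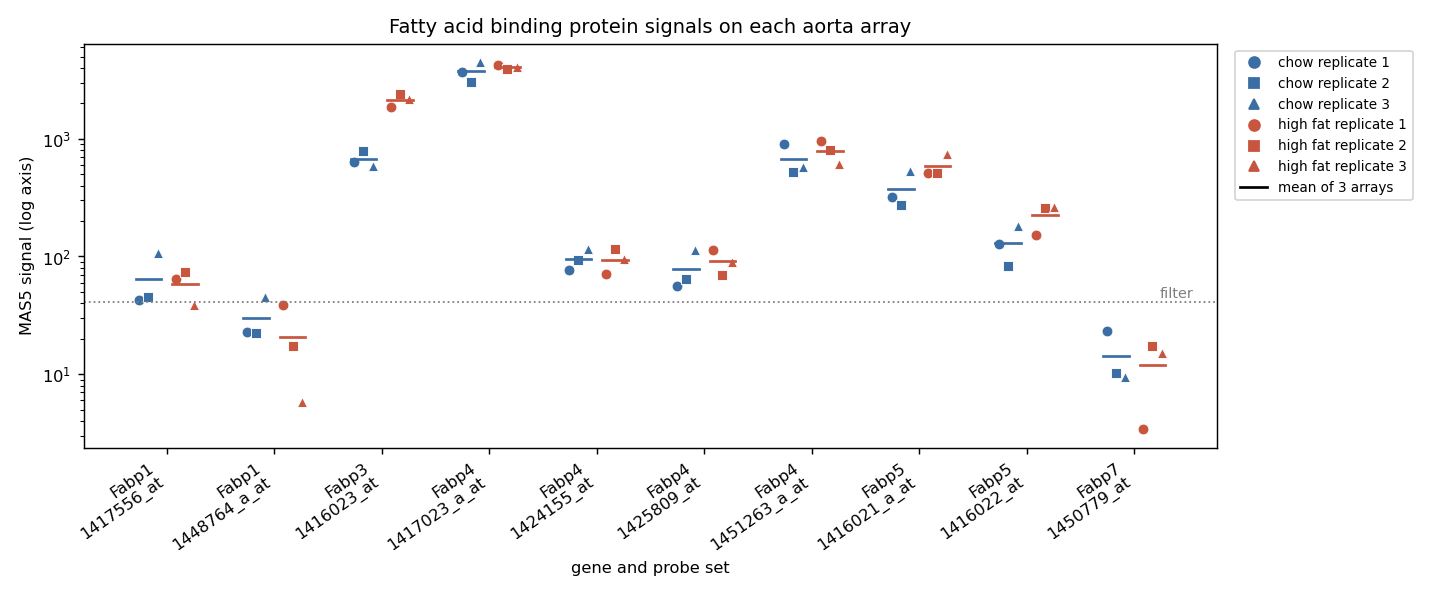
MAS5 signal on a log axis for each of the 10 probe sets, with chow arrays in blue, high fat arrays in red, marker shape for the replicate number, bars for the mean of 3 arrays and a dotted line at the signal of 40.7 below which probe sets were not tested. The high fat arrays of Fabp3 lie between 1853 and 2386, above chow at 589.6 to 784.3, while the diets overlap for every other probe set.

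Of the other 7 tested, 0 passed a limma p of 0.05 after adjustment over the whole array, a threshold that 0.0737% of all probe sets passed, 0.0368% upward and 0.0368% downward. At an unadjusted p under 0.05 there were 2, both higher on high fat diet, where 7.03% of all probe sets reached it and 3.92% did so upward. None passed with another of the 17 settings. None of the 7 had diets that did not overlap. Across all probe sets, 6.26% had high fat arrays wholly above chow, and 6.08% wholly below.

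Fabp5, the epidermal form that also passes fatty acids to PPAR delta, was measured by 2 probe sets with the next largest differences. For 1416021_a_at, high fat arrays 1, 2 and 3 read 507.8, 515.4 and 742.5 and chow arrays 1, 2 and 3 read 317.4, 274.6 and 529.9. Only chow replicate 3 reached into the high fat range, above high fat replicates 1 and 2. The means were 589 ± 133 and 374.0 ± 136.7 (SD, n = 3), with a log2 difference of 0.68 (95% interval 0.15 to 1.21, unadjusted p = 0.0169 and adjusted p = 0.586, limma). The signal of 1416022_at was 151.1, 259.9 and 262.7 on high fat diet and 128.5, 83.4 and 181.3 on chow, in the same replicate order. Here high fat replicate 1 fell below chow replicate 3. The means were 224.6 ± 63.6 and 131.1 ± 49.0, with a log2 difference of 0.77 (95% interval 0.14 to 1.40, unadjusted p = 0.0208 and adjusted p = 0.610, limma).

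Both Fabp5 probe sets had their lowest signal in chow replicate 2 and their highest in high fat replicate 3. Their log2 SD between pools of one diet was 0.41 and 0.49. Single arrays moved both values. Without chow replicate 3 the log2 differences were 0.96 and 1.03 (adjusted p = 0.211 and 0.389, limma), and without chow replicate 2 they were 0.49 and 0.50 (adjusted p = 0.910 for both). Over 17 other settings neither probe set passed, with an adjusted p of at least 0.211 for the first and 0.314 for the second.

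Fabp4, the adipocyte form that is also made by macrophages and the endothelium of small vessels, was measured by 4 probe sets. The brightest, 1417023_a_at, read 4240, 3949 and 4113 on the high fat arrays and 3693, 3067 and 4467 on the chow arrays, in replicate order. The diets overlapped, and chow held both the lowest and the highest array. The log2 SD was 0.05 between high fat pools and 0.27 between chow pools. The means were 4101 ± 146 and 3742 ± 701, with a log2 difference of 0.15 (95% interval -0.16 to 0.45, adjusted p = 0.861, limma).

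The second Fabp4 probe set, 1451263_a_at, had 957.2, 807.7 and 616.0 on high fat diet and 911.4, 526.6 and 580.7 on chow, in replicate order. Replicate 1 was the highest array of both diets. The log2 difference was 0.26 (95% interval -0.23 to 0.74, adjusted p = 0.851, limma). The remaining pair was much dimmer. Probe set 1424155_at ranged from 71.5 to 115.1 on high fat diet and from 76.4 to 116.3 on chow, with a log2 difference of -0.02 (95% interval -0.52 to 0.47), and 1425809_at ranged from 69.3 to 113.0 and from 55.8 to 113.6, with a difference of 0.24 (95% interval -0.36 to 0.85). Neither passed (adjusted p = 0.987 and 0.881, limma). Between 2 of these probe sets, the SD of the log2 difference over the 6 arrays lay between 0.29, for 1417023_a_at and 1425809_at, and 0.57, for 1424155_at and 1451263_a_at. For the 2 Fabp5 probe sets it was 0.27.

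Fabp1, the liver form, was at or near the background range. Probe set 1417556_at had 64.3, 73.5 and 38.8 on high fat diet and 42.9, 44.9 and 106.5 on chow, in replicate order, with chow replicate 3 the highest of all arrays. The log2 difference was -0.05 (95% interval -0.81 to 0.70, adjusted p = 0.982, limma). Its direction turned without chow replicate 3, to 0.34, and without high fat replicate 3, to 0.19. The other, 1448764_a_at, was too low to be tested, at 5.8 to 38.9 on high fat diet and 22.5 to 45.4 on chow, and it too was highest in chow replicate 3. Hepatocyte markers had a summed signal of 1298 over 6 genes in chow replicate 3, against 353.5 to 546.8 on the other 5 arrays. Alb, serum albumin, was 337.8 there and 103.2 to 152.3 elsewhere, and their part in the Fabp1 values was not tested. Fabp7, the glial form, had a signal of 3.4 to 17.3 on high fat diet and 9.4 to 23.4 on chow and was not tested.

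**Figure D2:**
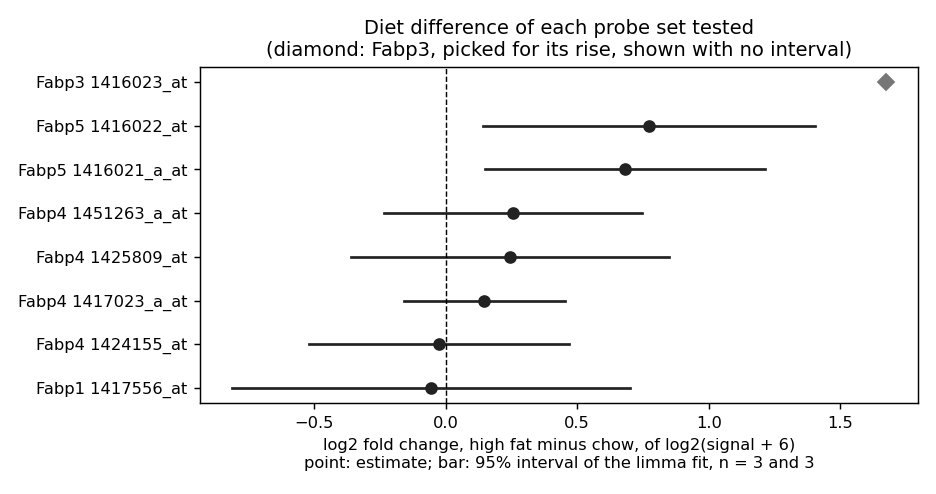
Log2 difference between the diets for the 8 probe sets tested, with 95% intervals of the limma fit for all but Fabp3, which was picked for its rise and is shown as a point at 1.67. Both Fabp5 intervals begin just above 0, at 0.15 and 0.14, while those of Fabp4 and Fabp1 span 0.

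Aorta is a mixture of cells, and in bulk RNA a smaller number of cells of a type and less RNA per cell cannot be told apart. The cells that normally make each form were therefore set beside it through marker genes. Brown adipocyte markers split by diet as Fabp3 did, and not in the same order within a diet. The 8 on the array summed to 10905, 12559 and 10351 on the high fat arrays and to 7309, 6724 and 8875 on the chow arrays, in replicate order. These sums did not overlap either, and how often sums over other genes do so was not computed. On chow the array with the lowest brown sum, replicate 2, had the highest Fabp3 and the array with the highest sum, replicate 3, the lowest, and on high fat diet replicate 3 had the lowest sum and the middle Fabp3. All 7 tested had higher means under high fat diet, and their median log2 difference was 0.50 against 1.67 for Fabp3. None passed in limma. Where 6.98% of all genes reached an unadjusted p below 0.05, 5 of these markers did. Among them Ucp1 had a log2 difference of 0.49 (adjusted p = 0.445, limma) and Cidea, a lipid droplet protein of brown fat, 0.50 (adjusted p = 0.461). Neither defining marker was near 0 on any array, and the part of brown adipocyte RNA in the Fabp3 difference was not tested.

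Heart muscle is another main source of Fabp3, and cardiac RNA varied widely within each diet. The 12 cardiac markers summed to 1090, 8337 and 6330 on the high fat arrays and to 2862, 4175 and 1019 on the chow arrays, in replicate order, so that the diets overlapped. All 12 had higher means under high fat diet, with a median log2 difference of 0.70. In limma 0 of them reached an unadjusted p under 0.05, a level that 6.98% of all genes reached. Single arrays set that median, which became 1.52, 0.25 and 0.42 when high fat replicate 1, 2 or 3 was left out, and 1.05 and 0.30 when chow replicate 2 or 3 was. Myh6, the alpha myosin heavy chain of heart, ranged from 55.4 to 692.4 over the 6 arrays and Myl2, the ventricular light chain, from 62.8 to 1934.

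The order of Fabp3 followed these sums within each diet and not across the diets. In each diet the array with the highest cardiac sum had the highest Fabp3 and the array with the lowest sum had the lowest. High fat replicate 1, with a cardiac sum of 1090, had a Fabp3 signal of 1853, and chow replicate 2, with 4175, had 784.3. Without high fat replicate 2, the array brightest in cardiac markers, the Fabp3 difference was 1.59, and without high fat replicate 1 it was 1.77. The part of cardiac RNA in the Fabp3 difference was not tested. Skeletal muscle markers summed to 294.2 to 592.8 on high fat diet and 344.3 to 999.9 on chow over 10 genes, with 3 of 4 tested lower on high fat diet and a median log2 difference of -0.82. Without chow replicate 1 the median was 0.05, with the filter applied anew, so that the genes tested can differ. On high fat diet Tnnc2 read 19.7 to 34.1 and Pvalb 17.3 to 33.1. Chow replicates 2 and 3 read 96.2 and 50.7 for Tnnc2 and 65.9 and 46.8 for Pvalb, so both stayed lower without chow replicate 1. Acta1 and Ckm, the others tested, overlapped between the diets.

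Macrophage markers, which bear on Fabp4 and Fabp5, summed over 10 genes to 3120, 5034 and 3889 on the high fat arrays and to 3023, 2300 and 3033 on the chow arrays, in replicate order. These sums did not overlap, and here too no share over other genes was computed. Of 9 tested, 8 had higher means under high fat diet, and the median log2 difference was 0.60. None passed in limma, though 6 reached an unadjusted p under 0.05, as did 6.98% of all genes. Leaving out replicate 2 of the high fat diet gave a median of 0.35, and leaving out replicate 2 of chow gave 0.39. Adgre1, the F4/80 antigen, had 0.76 and Cd68, a lysosomal protein of macrophages, 0.69 (adjusted p = 0.452 and 0.580, limma). The lowest macrophage sum and the lowest signals of both Fabp5 probe sets were on the same array, chow replicate 2. The brown adipocyte sum was lowest on that array too. The highest macrophage sum was on high fat replicate 2, and the highest Fabp5 signals were on high fat replicate 3. The part of macrophage RNA in the Fabp5 values was not tested.

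Endothelial markers summed to 1807 to 2209 on high fat diet and 1636 to 1774 on chow over 10 genes, also without overlap. Of these genes 9 had higher means and none passed. Pecam1 had a log2 difference of -0.16 and Cdh5 one of 0.48. Smooth muscle markers had lower means on high fat diet for 9 of 10 tested, with a median log2 difference of -0.14 and none passing. Their sums overlapped, at 27414 to 28164 on high fat diet and 26852 to 32959 on chow. Adipocyte markers summed to 8665 to 8844 on high fat diet and 8902 to 12290 on chow over 8 genes, with the highest sum in chow replicate 3, the array on which 1417023_a_at of Fabp4 was highest too. Of 7 tested, 5 had higher means under high fat diet, and the median log2 difference was 0.19, or 0.07 if chow replicate 2 was left out and 0.10 if high fat replicate 2 was. The lower sums go with Car3, a carbonic anhydrase abundant in fat cells, at 2216 ± 402 on high fat diet and 4135 ± 373 on chow (adjusted p = 0.0768, limma). Adipoq had a log2 difference of 0.07, beside 0.15 for this Fabp4 probe set, and Lipe, the hormone-sensitive lipase, had 0.54 (adjusted p = 0.549). The hormone resistin (Retn) was the 1 adipocyte marker that passed, with a log2 difference of -1.06 (adjusted p = 0.0435, limma). It did not pass in 10 of 17 other settings, which included leaving out any array but chow replicate 1. Lep, the hormone leptin, fell below the filter and was not tested. Its signal was 56.2 to 111.4 on high fat diet and 7.8 to 28.2 on chow. Schwann cell markers summed to 1675 to 2003 on high fat diet and 1553 to 1828 on chow over 6 genes, while Fabp7, a glial gene, stayed under 24 on all arrays.

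**Figure D3:**
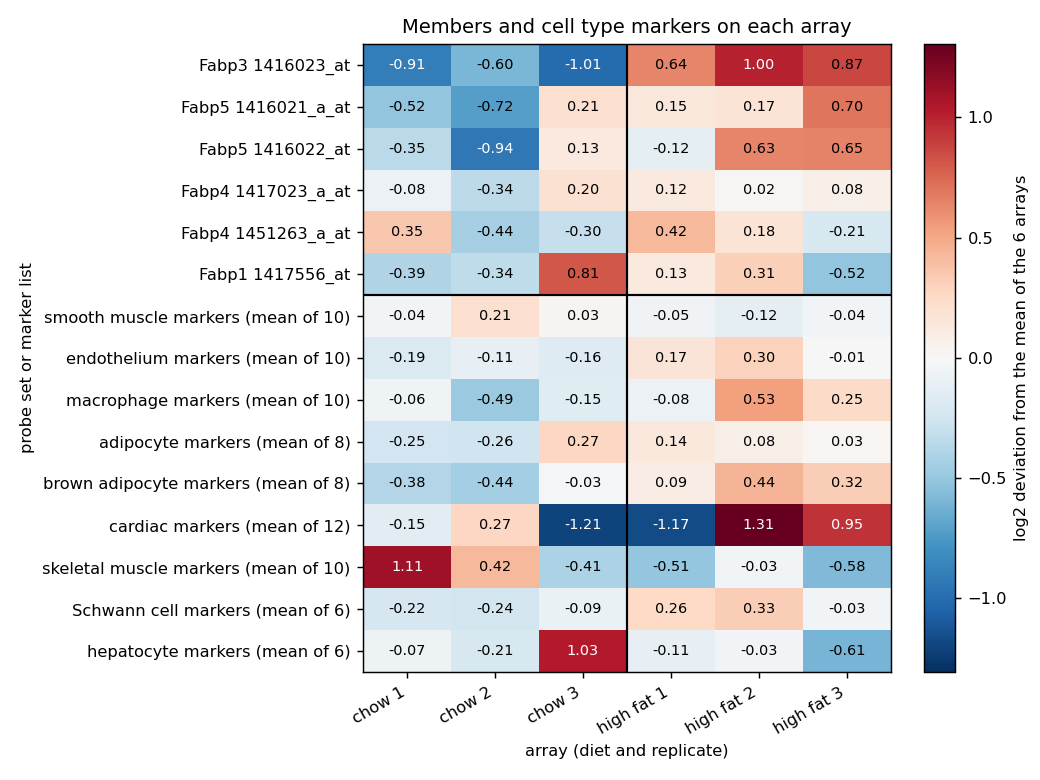
Log2 deviation of each array from the mean of the 6 arrays, for 6 probe sets of the family (top) and for the mean of each cell type marker list (bottom), with chow on the left and high fat diet on the right. Fabp3 splits by diet, from -1.01 to -0.60 on chow and at least 0.64 on high fat diet, brown adipocyte markers split in the same direction with smaller values, and Fabp1 and hepatocyte markers both peak in chow replicate 3.

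The relatives of the family in the same protein fold and the acyl-CoA binding protein Dbi were mostly dim. Of 12 such genes listed, 8 had a probe set of their own and 2 were bright enough to be tested. Fabp2, Fabp6 and Fabp9, the gut, bile acid and testis forms, did not exceed a signal of 12.3 on any array. Rbp7, a retinol binding protein of adipose endothelium, had 85.8 ± 15.6 on high fat diet and 57.2 ± 3.7 on chow, a log2 difference of 0.52 (adjusted p = 0.633, limma), and Dbi had 2274 ± 177 and 2277 ± 573, a difference of 0.03 (adjusted p = 0.981).

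Genes before and after the binding proteins in the path of a fatty acid were read by the same fit, from the brightest probe set of each gene. Over all 8327 genes, 50.9% had higher means on high fat diet and the median log2 difference was 0.01. In the uptake and activation list 6 of 11 tested were higher, with a median of 0.03, which became 0.19 when high fat replicate 1 was left out and -0.03 when replicate 2 or 3 of that diet was. Cd36, the fatty acid transporter at the cell surface, had 1554 ± 255 on high fat diet and 852 ± 218 on chow, a difference of 0.88 (adjusted p = 0.299), while Acsl5 and Acss1, which couple acyl groups to coenzyme A, had 0.35 and 0.25 (adjusted p = 0.777 and 0.867). In mitochondrial oxidation 19 of 20 were higher, with a median of 0.45, and the smallest p values belonged to Cpt2, a carnitine palmitoyltransferase, at 0.78, Etfa, an electron carrier, at 0.64 and Decr1, a reductase for unsaturated fatty acids, at 0.57 (adjusted p = 0.299, 0.395 and 0.445). In lipid droplets 12 of 13 were higher, with a median of 0.32, and the droplet coat proteins Plin2 and Plin5 had 1.31 and 0.82 (adjusted p = 0.148 and 0.319). Plin2 passed without high fat replicate 1 (adjusted p = 0.0305) and without chow replicate 3 (adjusted p = 0.0249). None of the 11, 20 and 13 genes of these lists passed in limma, and 1, 13 and 6 of them reached an unadjusted p below 0.05, as did 6.98% of all genes.

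The PPAR receptors themselves had no member past the threshold. Ppara, the receptor that drives oxidation genes, read 213.4, 203.7 and 212.8 on the high fat arrays and 110.4, 83.2 and 136.6 on the chow arrays, in replicate order. Its high fat arrays lay wholly above chow, as they did for 6.26% of all probe sets tested. Its log2 difference was 0.92 (adjusted p = 0.295, limma). Pparg, the adipocyte receptor, had 0.39 with overlapping diets (adjusted p = 0.814), and the coactivators Ppargc1b and Ppargc1a had 0.43 and 0.42 (adjusted p = 0.594 and 0.752). Over this list 7 of 8 tested were higher, with a median of 0.30, and 2 had an unadjusted p under 0.05, a level that 6.98% of all genes reached. Of other PPAR targets, all 4 tested were higher with a median of 0.43, none passing and 1 with an unadjusted p at that level. That median became 0.78 or 0.24 when high fat replicate 1 or 2 was left out, and 0.28 when chow replicate 2 was. Pdk4, a kinase that turns off pyruvate oxidation, had 0.62, the uncoupling protein Ucp3 had 0.40 and Angptl4, an inhibitor of lipoprotein lipase, had 0.41 (adjusted p = 0.586, 0.777 and 0.833).

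The genes with the profile most like that of a member were found by the root mean square difference of log2 values over the 6 arrays, after each probe set was centred on its mean, among 8323 genes. Since Fabp3 was picked for its rise, genes near it also differ between the diets by construction. The nearest was Npr3, the clearance receptor for natriuretic peptides, at a distance of 0.16, where the median of all genes was 0.87. Its signal was 228.4, 294.3 and 279.9 on high fat diet and 70.1, 71.7 and 78.5 on chow, in replicate order, and the order of the high fat arrays was that of Fabp3 while that of the chow arrays was not. Next came Cacng1, a muscle calcium channel subunit, at 0.36, the clone-named 4931406C07Rik and the tight junction protein Cldn5 at 0.38 each, and Oas2, an interferon response gene, at 0.39.

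For Fabp5 the nearest genes were Rpia, Itga6, Tmem45b, Ms4a6c and Sod2 for 1416021_a_at, at 0.13 to 0.17, and Tyrobp, Palmd, Pdk4, Tmem45b and Elovl3 for 1416022_at, at 0.14 to 0.19. The 2 Fabp5 probe sets lay 0.25 from each other, where the median of all genes was 0.52 for the first and 0.59 for the second. The genes listed lay closer, but they are the 5 nearest of 8323. Tmem45b was on both lists. The brightest Fabp4 probe set varied little, and its nearest genes, Tbc1d20, Mrps16, Isca1, Zbtb18 and Xpc, lay at 0.05 to 0.06 where the median of all genes was 0.27. The single nearest genes of the other Fabp4 probe sets were Cep89 for 1451263_a_at at 0.09, Gstm3 for 1425809_at at 0.10 and Hhex for 1424155_at at 0.06. Those of Fabp1 probe set 1417556_at were Ctrc, Dab1, Vpreb3, Uox and Stard4, at 0.13 to 0.16.

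**Figure D4:**
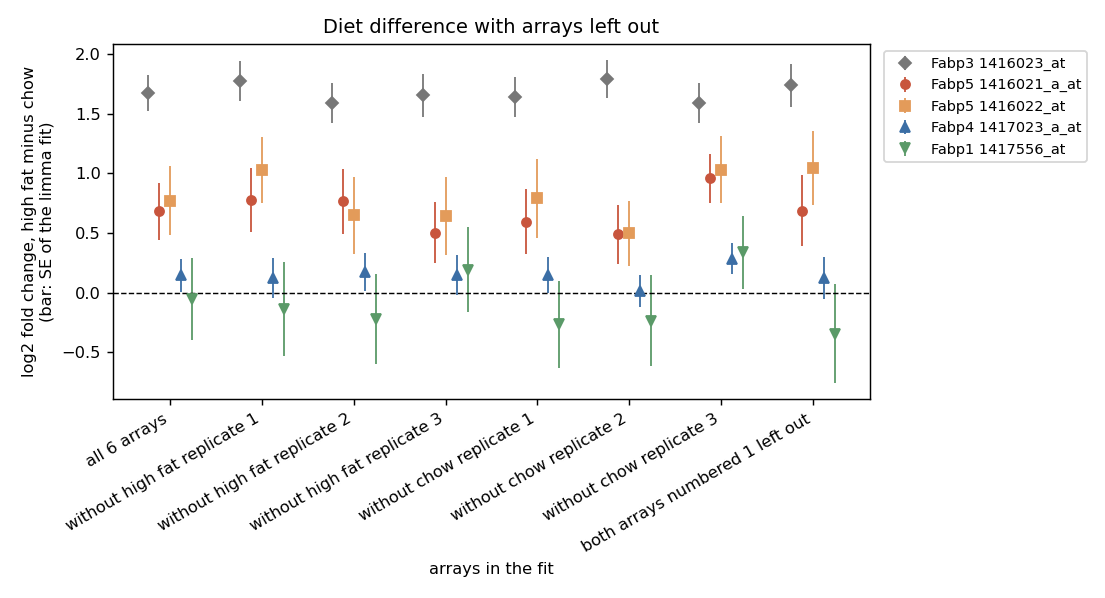
Log2 difference between the diets, with SE of the limma fit, for Fabp3, both Fabp5 probe sets, the brightest Fabp4 probe set and the tested Fabp1 probe set, with all 6 arrays, with each array left out in turn and with both arrays numbered 1 left out. Fabp3 stays between 1.59 and 1.79, Fabp5 between 0.49 and 1.05, and Fabp1 crosses 0.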

How the data were processed

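The authors deposited 1 table of linear signal intensity per probe set for 6 arrays, made with MAS5 per the submitters' processing notes, with version, settings and detection calls not given in the sources used here. Per the labels' protocols, 5 µg of RNA entered labelling. The 2% trimmed mean was 150.05 on every array to within 0.01, so the deposited scaling was kept, and median signals were 58.4 to 66.6. The 64 control probe sets were left out. Of the other 22626, 20380 had 1 gene symbol in the platform annotation, 691 several and 1555 none. By gene ID 20351 matched the current RefSeq gene table, and 0 symbols differed.

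Signals were transformed as log2(signal + 6), 6 being the 10th percentile, and probe sets with a mean above the 40th percentile were kept. High fat and chow arrays were set against each other in R 4.3.3 by limma 3.58.1 (lmFit, eBayes with a variance trend, two-sided) and Benjamini-Hochberg adjustment over all 13575 kept, at 0.05. The steps were tested on simulated data. Log2 differences carry moderated SEs, and the number of arrays limits precision. Lists used the kept probe set of highest mean per gene, and sums over markers took the probe set of highest mean.

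All probe sets of the members were named, and of each pathway list the called genes or otherwise the 3 of smallest p. Of marker lists the first 2 were named, but only the first for hepatocytes and skeletal muscle and none for Schwann cells. Named too were 5 genes of nearest profile (only the nearest for the 3 dimmer Fabp4 probe sets). Pparg, Retn, Car3, Lipe, Tnnc2, Pvalb, Ckm, Fabp2, Fabp6 and Fabp9 were added to these after their values were seen. The members and lists were chosen with earlier results of these data known. The labels give no batch.

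The fit was repeated with each array left out, with both arrays numbered 1 left out, with the replicate number as block, with array weights, with a robust or untrended variance, after quantile or median scaling, with a pseudocount of 1 or 20, and with the filter removed or set to the 60th percentile. The filter was applied anew in each fit, so the genes tested in a list can differ between settings. Promoters came from RefSeq (GRCm38.p6), 3 of 5 members having an entry.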

Additional observations from a re-analysis of the deposited data

How the results depend on the processing

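The log2 difference of Fabp3 was 1.59 to 1.79 over the 17 other settings. Since Fabp3 was picked for its rise on these same arrays, its unchanged direction is no test of that rise. No other Fabp probe set passed in any of these settings, with 5 tested under a filter at the 60th percentile and 9 with no filter. Over all probe sets, the count past the threshold was 10, and it was 6 with no filter, 5 without the variance trend, 5 with the replicate number as a block and 5 to 16 with 1 array left out (5 without high fat replicate 2 or chow replicate 2, 16 without high fat replicate 1). Same-numbered arrays correlated at 0.03, 0.17 and -0.11 in their deviations from the diet means, so the numbers were not taken as pairs. With the replicate block the log2 difference of Fabp3 was 1.67 and the Fabp5 probe sets had adjusted p = 0.329 and 0.515 (limma).

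The uncalled Fabp1 probe set ranged from -0.26 to 0.34 with 1 array left out, and Fabp4 probe set 1424155_at from -0.17 to 0.15. With both arrays numbered 1 left out, 1424155_at had 0.0072 and 1425809_at had -0.11, both turned in sign. The causes were not tested. Of 255 list medians under other settings, 14 moved by more than the spread between pools of the same list. By this measure a list with a wide spread seldom counts as moved. The cardiac median ran from 0.25 to 1.72 and was not among the 14. Signals below about 50 cannot be separated from background, which limits Fabp1 and Fabp7.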
